A study of Mus musculus with 4 samples.

Results

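Among CD4 T cells taken from mice with graft-versus-host disease, 1972 cells carried transcripts of at least 3 of Il13, Csf2, Ccl1, Il1r2 and Tnfsf11. They were chosen by these counts and by nothing else. A member had at least 1 UMI (a unique molecular identifier, the tag that marks 1 captured RNA molecule) of at least 3 of the 5 genes, and at least 1 UMI of Cd3e, Cd3d or Cd3g, which encode chains of the T cell receptor complex. The 1972 members, 1060 in replicate 1 and 912 in replicate 2, stood among 34829 cells with a Cd3 UMI and 34918 kept cells in all. They were compared with the 19915 cells that had a Cd3 UMI and no UMI of any of the 5 genes, 11400 and 8515 by replicate. The 12942 cells with 1 or 2 of the genes lay between.

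The cells came from mice studied 4 weeks after transplantation, in a disease in which transplanted donor T cells attack tissues of the recipient. The strain label is BALB/c RAG2-/- TS1 Tg, and every sample carries it. TS1 is a transgenic receptor of CD4 T cells for a peptide of influenza haemagglutinin, and without RAG2 no other receptor is rearranged. Cells were sorted from spleen, colon, skin (ear) and the epithelial and lamina propria fractions of the small intestine, tagged by tissue with hashtag antibodies and pooled into 2 expression libraries, one for each replicate. The labels do not say whether the replicates were separate animals, so every SD and p-value measures only the spread between 2 pooled libraries, which may be technical. The hashtag libraries as read held gene counts and no hashtag features, so no cell has a tissue here, and a difference between members and comparison cells cannot be told apart from a difference in tissue of origin.

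Interleukin 13, encoded by Il13, is a cytokine of type 2 helper T cells and innate lymphoid cells that acts on epithelium, goblet cells, macrophages and smooth muscle. Csf2 encodes GM-CSF, which activates monocytes, macrophages, dendritic cells and granulocytes and which T cells make in graft-versus-host disease of the gut. Ccl1 encodes the chemokine that binds CCR8, Tnfsf11 encodes RANKL, a TNF family ligand that drives osteoclasts, M cells and lymph node organisers, and Il1r2 encodes a decoy receptor that binds interleukin 1 without signalling. Lmna, given as a further marker of these cells, encodes the A-type lamins of the nuclear envelope.

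Il13, Il4, Il5, Csf2 and Il3 lie in a cytokine cluster on mouse chromosome 11. In mm10, with GENCODE gene limits, Il13 spans positions 53631324 to 53634702 and Csf2 54247271 to 54249667, both on the minus strand, and the stretch from Il4 to Il3 measures 664 kb. Ccl1 is on chromosome 11 too, Il1r2 on chromosome 1, Tnfsf11 on chromosome 14 and Lmna on chromosome 3. The sequences before the starts of Il13 and Tnfsf11 are shown because these genes choose the cells and because RefSeq (GRCm38.p6) and GENCODE place their starts at the same base. The 250 bases before each start run 5′ to 3′ on the gene's strand. Capitals mark GGAAA (the core that NFAT proteins bind), TGANTCA (AP-1) and GATAA (GATA factors), searched on both strands, with no base in more than 1 match.
Il13 promoter, chr11:53634703-53634952, minus strand: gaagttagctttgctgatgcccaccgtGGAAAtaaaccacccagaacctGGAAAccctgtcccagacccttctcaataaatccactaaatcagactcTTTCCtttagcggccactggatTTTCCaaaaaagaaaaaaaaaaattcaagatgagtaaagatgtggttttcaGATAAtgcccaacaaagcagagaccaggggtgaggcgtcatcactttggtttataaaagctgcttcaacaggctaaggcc
Tnfsf11 promoter, chr14:78308044-78308293, minus strand: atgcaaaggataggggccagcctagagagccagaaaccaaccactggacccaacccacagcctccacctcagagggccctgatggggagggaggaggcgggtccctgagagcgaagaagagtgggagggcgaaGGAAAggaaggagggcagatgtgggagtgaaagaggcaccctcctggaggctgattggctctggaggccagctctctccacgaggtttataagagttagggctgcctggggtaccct
The Il13 stretch held 4 matches to GGAAA and 1 to GATAA, and the Tnfsf11 stretch held 1 match to GGAAA. Neither held TGANTCA. Over 32851 promoters of the same length, 55.6% held GGAAA, 6.75% TGANTCA and 22.6% GATAA, so such matches are common, and they describe letters rather than bound sites.

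Both expression libraries were deep enough to see most members well above the cell filter, and they differed in depth. They held 89427990 and 108082997 UMIs, with medians of 2688 and 3699 UMIs per kept cell. Members were deeper than comparison cells, at medians of 3684.5 and 5174.5 against 2696 and 3494 UMIs, so each comparison was repeated on depth-matched cells. Replicate 2 held many more cells with at least 3 neutrophil markers. They were 7 of 1060 members (0.660%) and 163 of 11400 comparison cells (1.43%) in replicate 1, and 148 of 912 (16.2%) and 900 of 8515 (10.6%) in replicate 2. Cells with 3 markers of any other type made up 2.55% of members and 3.15% of comparison cells in replicate 1, and 19.96% and 12.2% in replicate 2. The gene-by-gene fits and the share of members were therefore repeated without cells that held 3 markers of another cell type. The other descriptions of members include such cells. The libraries shared 599 barcodes of kept cells, of which 28 and 22 were members.

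Members made up 5.59% of cells with a Cd3 UMI in replicate 1 (exact binomial 95% interval 5.26 to 5.92) and 5.75% in replicate 2 (5.39 to 6.13), or 5.67% ± 0.116 (SD, n = 2 libraries). The intervals cover counting error only. The share moved with the definition. With cells thinned to 1500 UMIs and the rule applied to the thinned counts, it was 3.27% and 2.28%. That reverses the order of the replicates. Cells with fewer than 1500 UMIs were left out. After thinning, 15166 and 14733 cells had a Cd3 UMI, against 18972 and 15857 before. The part of this loss in the reversal was not tested. With at least 10 UMIs of the 5 genes the share was 3.24% and 3.62%.

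Ccl1 was the gene most often detected in members, in 92.0% and 93.2% of them by replicate. Tnfsf11 followed with 76.5% and 77.9% and Csf2 with 76.0% and 72.8%. Il13 was detected in 49.7% and 55.9% and Il1r2 in 49.9% and 52.1%. About as many members therefore lacked Il13 as had it. These shares describe the choice of cells and carry no test.

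Levels are given as CPM, UMIs of the gene per 1000000 UMIs of all cells of the class summed. A level of a class cannot tell more cells with the RNA from more RNA per cell. In members of replicates 1 and 2, Il13 was at 628 and 730 CPM, Csf2 at 1430 and 1255, Ccl1 at 3313 and 3272, Il1r2 at 396 and 309, and Tnfsf11 at 476 and 349. Comparison cells were at 0 for all 5 by construction. Members held 67.9% and 72.5% of all Csf2 UMIs of cells with a Cd3 UMI, and 49.4% and 49.8% of those of Tnfsf11.

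The RNA of the 5 genes was unevenly spread among members. The 106 and 92 members richest in Il13 held 74.5% and 79.3% of the members' Il13 UMIs, and the richest cells held 214 and 494 Il13 UMIs. For Tnfsf11 the same number of richest members held 43.8% and 40.8%, with at most 36 and 26 UMIs in a cell. Single cells reached 509 and 589 UMIs of Ccl1 and 194 and 283 of Csf2. Summed over the 5 genes, members had medians of 12 and 15 UMIs, with 67 and 94 members at 100 UMIs or more. At the other end, 78 and 69 members held exactly 3 such UMIs, the fewest that the rule allows.

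**Figure D1:**
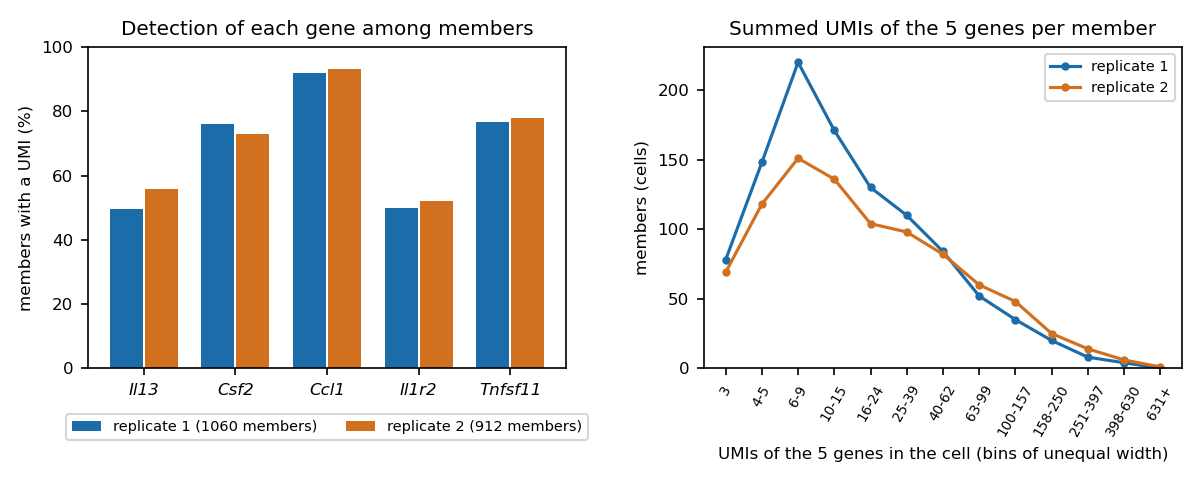
Left, the share of members with a UMI of each of the 5 genes (percent, bars, 1 colour per replicate). Right, the number of members by their summed UMIs of the 5 genes, in bins of unequal width. Ccl1 reached 92.0% and 93.2% of members and Il13 49.7% and 55.9%, and the summed UMIs run from 3 to 555 and 1178.

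The genes came in every combination, and no single one defined the members. Csf2, Ccl1 and Tnfsf11 without Il13 or Il1r2 were the commonest set, in 242 members of replicate 1 and 183 of replicate 2. Il13, Csf2 and Ccl1 alone were found in 118 and 77, and all 5 genes in 88 and 106. Among cells with a Cd3 UMI, thinned to 1500 UMIs, 30.7% and 27.3% of those with an Il13 UMI also held Csf2. Of those without Il13, 7.05% and 5.75% did. Ccl1 was found in 52.3% and 42.4% of cells with Il13 and in 14.9% and 14.2% of those without.

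A single UMI of these genes is not evidence that a cell makes them. Barcodes with fewer than 100 UMIs, which hold free RNA rather than cells, contained Il13 at 71.5 and 75.9 CPM and Ccl1 at 483 and 419. The sum of all cells with a Cd3 UMI contained them at 61.3 and 70.5 and at 401 and 372 CPM, so the free RNA held them at a like level. Thinned to 1500 UMIs, 2.05% and 3.87% of cells with at least 3 neutrophil markers had an Il13 UMI, against 4.23% and 3.86% of cells with a Cd3 UMI, and 12.8% and 14.8% against 16.5% and 15.3% had a Ccl1 UMI. Median depths before thinning were 3008 and 4990 UMIs for the former and 2689 and 3702 for the latter. In replicate 2 the Il13 shares were close, and in replicate 1 the share was lower in the neutrophil-marker cells. Single-gene shares are not read as expression here.

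The full rule was also met by cells with markers of other types. Of cells with 3 neutrophil markers, 2.58% in replicate 1 and 7.52% in replicate 2 held 3 of the 5 genes, and of cells with 3 macrophage or dendritic cell markers 8.37% and 10.4% did. Of cells with 3 epithelial markers the shares were 2.65% and 12.3%, against 5.59% and 5.75% of all cells with a Cd3 UMI. These cells were deeper, with medians up to 9018 UMIs for macrophage markers in replicate 2. Thinned to 1500 UMIs, the shares were 0.513% and 2.46% for neutrophil markers and 2.08% and 2.72% for macrophage markers, against 3.27% and 2.28% of cells with a Cd3 UMI. Of cells with no Cd3 UMI, 0 of 48 (exact 95% interval up to 7.4%) and 2 of 41 held 3 of the 5 genes. The part of free RNA and of mixed barcodes in the members was not tested.

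Levels of Il13 and Csf2 were higher in cells just inside the threshold than in cells just outside it. Both genes are among those counted to form these groups, so a rise with the count is built into the grouping. These levels therefore cannot tell whether the cells form a graded series. In replicate 1 the 680 members with exactly 3 genes had Il13 at 341 CPM and Csf2 at 1102, and the 1714 cells with 2 genes had 111 and 318. In replicate 2 the 545 members with 3 genes had 259 and 822, and the 1548 cells with 2 genes had 64.8 and 185. Median depth rose in the same direction, from 2727.5 to 3214 UMIs in replicate 1 and from 4186 to 4892 in replicate 2. The part of depth in the rise of both genes was not tested.

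Genes outside the rule followed the same order. Lmna stood at 95.3 CPM in cells of replicate 1 with none of the 5 genes, 454 with 2, 624 with 3 and 834 with all 5. In replicate 2 it stood at 79.1, 305, 467 and 605. Gata3, the master factor of type 2 helper cells, stood at 56.0, 108, 165 and 204 CPM in replicate 1 and at 54.6, 89.3, 127 and 164 in replicate 2. Gzma, a granzyme of cytotoxic cells, ran the other way, from 21631 CPM with none of the genes to 3215 with all 5 in replicate 1. In replicate 2 it fell from 20358 to 4461 in cells with 4 genes and was 7187 in the 106 cells with all 5.

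**Figure D2:**
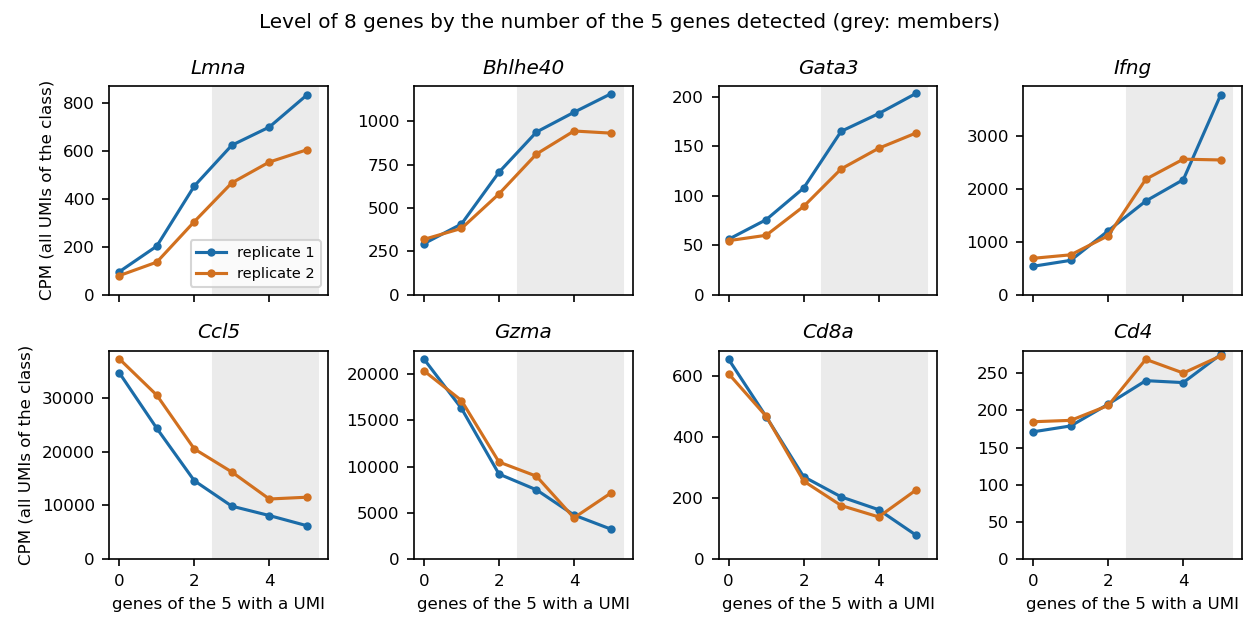
Levels of 8 genes (CPM, linear axes from 0) in cells with a Cd3 UMI grouped by how many of the 5 genes had a UMI, 1 line per replicate, with members on grey. Lmna, Bhlhe40 and Gata3 are higher and Ccl5, Gzma and Cd8a lower in members than in cells with none of the genes, in both replicates.

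Members were then compared with the cells that had none of the 5 genes, gene by gene, on counts summed per class and library. Each gene got a p from the quasi-likelihood test of edgeR with the library as a block, adjusted over all genes tested (Benjamini-Hochberg). The 5 genes and the Cd3 genes were left out. Of 12353 genes tested, 4334 passed an adjusted p of 0.05, which is 35.1%. These were 2245 higher in members (18.2%) and 2089 lower (16.9%). Each list below is to be read against those shares. Log2 fold changes carry the SE of the fit, which borrows information across genes and has 1 residual degree of freedom. An SE may therefore lie below the difference between both libraries. Depth-matched cells gave 19.3% higher and 17.5% lower (36.9% in all), thinned cells 9.74% and 8.15% (17.9%), and cells without those of other types 21.6% and 19.8% (41.4%). Over all genes tested the median log2 fold change was -0.01.

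Genes of the type 2 helper programme were mostly higher in members. Of 16 tested, 12 rose and 2 fell, with a median log2 fold change of 1.41. Gata3 was at 175 and 139 CPM in members of replicates 1 and 2 and at 56.0 and 54.6 in comparison cells, a log2 fold change of 1.57 ± 0.0752 (adjusted p = 1.6e-08). Ccr8, the receptor of CCL1, was at 26.1 and 22.2 against 2.31 and 1.91 CPM, a log2 fold change of 3.58 ± 0.131 (adjusted p = 2.0e-09). Members of both libraries lay above comparison cells of both for either gene. Areg, which encodes the epithelial growth factor amphiregulin, rose by 1.68 ± 0.116, and Stat5a, a transducer of interleukin 2 signals, by 1.60 ± 0.0935 on the same scale.

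Il4, which shares the locus with Il13, was at 4.74 and 3.92 CPM in members and at 0.506 and 2.20 in comparison cells (log2 fold change 1.87 ± 0.486, adjusted p = 0.011). It was found in 6 and 10 members. Its call was lost without the replicate block (adjusted p = 0.088) and with 3 classes in the fit (0.107). The log2 ratio of CPM, with 1 CPM added to both classes, was 0.62 without replicate 1 and 1.93 without replicate 2. The added CPM makes such ratios smaller for genes this low, and they are not on the scale of the fit. Il5, the eosinophil growth factor, was found in 6 and 4 members, and Il9 had no UMI in either class. Il1rl1, which encodes the interleukin 33 receptor, was found in 18 and 20 members, at 3.95 and 3.75 against 0.916 and 0.968 CPM. Each of these genes was thus seen in few cells of either library. Cd200r1 and Plac8 were the 2 list members that fell, by 0.56 and 0.92 on the log2 scale.

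Genes of GM-CSF producing helper cells rose in 9 of 12 tested and fell in 1, with a median log2 fold change of 1.67. Bhlhe40, a transcription factor needed for GM-CSF production by mouse T cells, was at 998 and 870 CPM in members and at 294 and 318 in comparison cells (log2 fold change 1.68 ± 0.0853, adjusted p = 2.7e-08). Il2ra, the high-affinity subunit of the interleukin 2 receptor, was at 109 and 96.3 against 11.8 and 10.5 CPM (3.27 ± 0.0737, adjusted p = 4.1e-11). Csf1, which encodes the macrophage growth factor M-CSF, was at 241 and 216 against 55.8 and 57.0 CPM, and Il7r, the interleukin 7 receptor, rose by 1.51 on the log2 scale. Il3, the neighbour of Csf2, rose from 0.0723 and 0.209 to 13.8 and 23.8 CPM, but in 5 and 11 members only. Spp1, which encodes osteopontin, fell by 0.53 on the log2 scale.

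TNF family ligands other than RANKL were higher too. Of 13 tested, 8 rose and 1 fell, with a median log2 fold change of 1.60. Cd70, the ligand of CD27, was at 84.5 and 79.2 CPM in members and at 3.81 and 2.88 in comparison cells (4.69 ± 0.119, adjusted p = 1.1e-10), and it was found in 207 and 209 members. Lta, which encodes lymphotoxin alpha, was at 316 and 239 against 29.9 and 21.4 CPM (3.51 ± 0.0711, adjusted p = 2.8e-11). Tnfsf8 (CD30 ligand) rose by 2.95 ± 0.073, Tnfsf9 (4-1BB ligand) by 3.21 ± 0.0839 and Cd40lg by 1.82 ± 0.0708. Tnf itself was at 353 and 332 against 112 and 116 CPM. Fasl, the death ligand, did not pass, at 81.9 and 117 against 104 and 121 CPM.

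Receptors of the family split. Of 13 tested, 8 rose and 2 fell. Tnfrsf4 (OX40) was at 525 and 438 against 103 and 104 CPM, a log2 fold change of 2.29 ± 0.0854, and Tnfrsf9 (4-1BB) at 341 and 322 against 83.4 and 72.9. Cd27 went the other way from its ligand, at 62.4 and 72.6 against 155 and 160 CPM (-1.16 ± 0.0659, adjusted p = 6.9e-08).

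Chemokines were mixed, with 4 of 8 tested higher and 3 lower. Xcl1, which attracts cross-presenting dendritic cells, was at 594 and 628 CPM in members and at 47.6 and 50.5 in comparison cells (3.71 ± 0.0771, adjusted p = 2.8e-11). It was found in 115 and 165 members, and the 5 richest held 68.9% and 46.1% of the members' Xcl1 UMIs. Ccl5, a chemokine of effector and cytotoxic T cells, was at 8897 and 13940 against 34668 and 37256 CPM (-1.62 ± 0.0894, adjusted p = 5.2e-08). Ccl4 did not pass, at 3062 and 4369 against 3759 and 4219 CPM. Of 13 chemokine receptors tested, 7 rose and 4 fell. Besides Ccr8, these included Cx3cr1 (2.75 ± 0.131), Ccr1 (2.72 ± 0.122) and Cxcr6 (1.14 ± 0.0701) among the rises. Ccr9, which guides T cells to the small intestine, was at 39.3 and 49.5 against 139 and 148 CPM, and Cxcr3, a receptor of type 1 cells, fell by 1.02 on the log2 scale.

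Of the interleukin 1 family and its receptors, 5 of 10 tested rose and 1 fell, and 2 rose in thinned cells. The 2 chains of the interleukin 18 receptor had the firmest values. Il18r1 was at 214 and 197 against 68.4 and 64.8 CPM (1.70 ± 0.0646, adjusted p = 2.9e-09) and Il18rap at 102 and 93.5 against 29.0 and 30.3 (1.79 ± 0.0695). Il1r1, the signalling interleukin 1 receptor for which IL1R2 is the decoy, was found in 4 and 7 members only, at 0.790 and 1.14 CPM. Il1b rose in the fit but was found in 1 and 7 members, and replicate 1 alone had it lower in members, at 0.197 against 0.579 CPM.

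**Figure D3:**
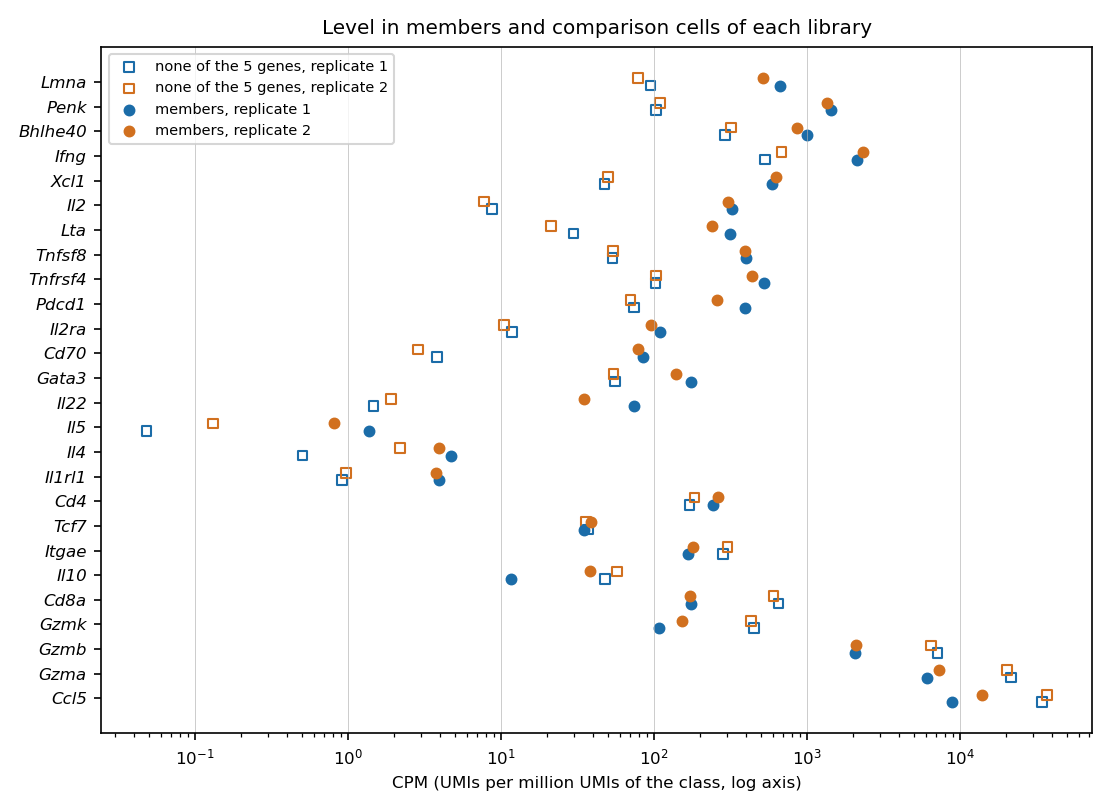
Level of 26 genes (CPM, log axis) in members (filled circles) and in cells with none of the 5 genes (open squares) of replicates 1 and 2. Il2, Cd70, Lta and Lmna are far to the right in members, Gzma, Gzmb, Ccl5 and Cd8a are to the left, and Tcf7 overlaps.

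Genes that T cell receptor signals induce were higher. Of 20 tested, 15 rose and 0 fell, with a median log2 fold change of 1.01. Il2, the T cell growth factor, was at 327 and 304 CPM in members and at 8.73 and 7.77 in comparison cells (5.33 ± 0.0784, adjusted p = 2.0e-12). It was found in 57 and 68 members, and the 5 richest of them held 81.7% of the Il2 UMIs in each library. Broader rises were those of Cd44, an adhesion receptor of activated T cells (336 and 275 against 81.1 and 73.2 CPM), and Icos, a costimulatory receptor (444 and 369 against 99.5 and 116). Nr4a1, an early response gene of the receptor, was at 239 and 261 against 76.9 and 108 CPM, and Egr3 at 34.1 and 36.2 against 8.92 and 9.42. Nr4a2, Nfatc1, Nfatc2 and Myc did not pass.

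The NF-kB and AP-1 lists moved likewise. Of 17 NF-kB genes tested, 13 rose and 1 fell, with Nfkb1 at 319 and 284 against 96.2 and 100 CPM (1.69 ± 0.0777, adjusted p = 1.2e-08). Nfkbia, which encodes an inhibitor of NF-kB and is induced by it, was at 2444 and 2069 against 751 and 914 CPM. Ikbkb, a kinase of the pathway, fell by 0.49 on the log2 scale. Of 15 AP-1 and related factors tested, 12 rose and 1 fell, and 8 rose in thinned cells. Atf3 was at 381 and 300 against 44.6 and 51.8 CPM (2.88 ± 0.115, adjusted p = 4.1e-09), and Fosl2 at 98.5 and 96.5 against 30.2 and 37.2. Jun passed with a small rise, at 534 and 695 against 467 and 656 CPM (0.21 ± 0.0701, adjusted p = 0.036).

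Type 1 helper genes divided between the cytokine and the receptors. Of 12 tested, 6 rose and 5 fell, with a median log2 fold change of 0.07. Ifng, which encodes interferon gamma, was at 2121 and 2349 CPM in members and at 534 and 684 in comparison cells (1.96 ± 0.0737, adjusted p = 2.7e-09). It was found in 810 and 751 members. After thinning to 1500 UMIs, it was found in 55.7% and 60.7% of members and in 42.7% and 47.0% of comparison cells. Tbx21, which encodes the type 1 factor T-bet, rose from 33.3 and 32.2 to 63.2 and 64.6 CPM. Eomes, a related factor, was at 24.1 and 29.9 against 53.8 and 60.2 CPM (-1.01 ± 0.0934). Thinned to 1500 UMIs, Ifng was found in 56.3% and 66.5% of members with an Il13 UMI and in 55.4% and 58.0% of those without.

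Cytotoxic genes fell and rose in equal number, 6 and 6 of 13 tested. The abundant granzymes were lower. Gzma was at 6165 and 7296 against 21631 and 20358 CPM (-1.57 ± 0.065, adjusted p = 5.2e-09), Gzmb at 2068 and 2109 against 7176 and 6475 (-1.64 ± 0.0589), and Gzmk at 109 and 153 against 455 and 430. Prf1, which encodes perforin, fell by 1.12 on the log2 scale. Gzmc rose from 8.92 and 7.04 to 63.8 and 34.9 CPM, and Klrc1 and Klrk1, receptors of natural killer cells, rose by 2.05 ± 0.0701 and 1.53 ± 0.0653. Gzmf, another granzyme, rose too but in 26 and 19 members, of which the 5 richest held 85.3% and 95.7% of its UMIs.

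Of 9 genes of Th17 and Th22 cells tested, 7 rose and 0 fell. Il22, a cytokine that acts on epithelium, was at 74.0 and 35.1 against 1.47 and 1.91 CPM (5.00 ± 0.264, adjusted p = 3.6e-08), and it was found in 32 and 21 members. Rora rose from 160 and 179 to 565 and 485 CPM and was found in most members. Il17a was found in 2 and 4 members and did not pass.

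Genes tied to regulation and to checkpoints moved in both directions. Of 10 regulatory genes tested, 5 rose and 3 fell. Foxp3, the factor of regulatory T cells, had too few UMIs to test, at 0.395 and 0.163 CPM in members and 0.362 and 0.157 in comparison cells. Il10, an anti-inflammatory cytokine, was at 11.6 and 38.4 against 48.2 and 57.8 CPM (-1.15 ± 0.231, adjusted p = 0.0022). The call for Il10 was lost without the replicate block and with DESeq2. Tgfb1 was at 506 and 446 against 190 and 185 CPM, and Capg at 731 and 610 against 173 and 145.

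Of 13 checkpoint genes tested, 4 rose and 7 fell. Pdcd1, which encodes PD-1, was at 393 and 261 against 74.3 and 70.6 CPM (2.22 ± 0.108, adjusted p = 1.9e-08) and Havcr2, which encodes TIM-3, at 149 and 125 against 47.0 and 48.7. Lag3 was at 104 and 170 against 215 and 210 CPM, Tox, a factor of exhausted T cells, at 50.7 and 75.8 against 96.4 and 121, and Cd244 and Cd160 fell by 1.48 and 1.34 on the log2 scale. PD-1 and TIM-3 thus moved opposite to the other inhibitory receptors named here.

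Of 15 genes of progenitor and memory cells tested, 4 rose and 6 fell. Tcf7, the factor of stem-like T cells, was at 35.1 and 39.2 against 37.2 and 36.1 CPM and did not pass (adjusted p = 0.54). In cells thinned to 1500 UMIs, with members chosen by the thinned counts, Tcf7 was lower in members and passed (-0.72, adjusted p = 0.020). Ccr7, the lymph node homing receptor, was at 66.1 and 36.7 against 3.86 and 5.86 CPM, and Klf3 and Lef1 fell by 1.40 and 0.59 on the log2 scale. Of 17 tissue residency genes tested, 4 rose and 11 fell. Itgae, which encodes the CD103 integrin of epithelial lymphocytes, was at 169 and 181 against 283 and 303 CPM (-0.68 ± 0.0684, adjusted p = 1.0e-05). Itgb7 and Itga4, whose products form the gut homing integrin, fell by 0.70 and 0.98.

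Genes for structural and calcium-binding proteins were higher in members. Of 18 genes for lamins, annexins, S100 proteins, galectins and related proteins, 17 rose and 1 fell, with a median log2 fold change of 1.37, and Lmna is counted among the 17. Lmna, a marker given with the cells and so described without test, was at 672 and 515 CPM in members and at 95.3 and 79.1 in comparison cells, and was found in 765 and 666 members. Lmnb1, the B-type lamin, was the 1 gene that fell, being lower in both libraries (-0.55 ± 0.0739, adjusted p = 0.00011). S100a4 was at 1729 and 1350 against 446 and 406 CPM (1.91 ± 0.0763, adjusted p = 4.0e-09), Vim, which encodes vimentin, at 3989 and 3048 against 1116 and 988, and Emp1, a membrane protein, at 199 and 166 against 39.9 and 35.5. S100a4 was found in 931 and 841 members. It was abundant in comparison cells too, so this count does not tell over how many cells the rise was spread.

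Metabolic genes rose as well. Of 19 glycolysis and hypoxia genes tested, 18 rose and 0 fell, with a median log2 fold change of 0.90. Hk2, an inducible hexokinase, was at 57.8 and 58.1 against 12.3 and 12.8 CPM (2.27 ± 0.109, adjusted p = 1.7e-08), and Tpi1 at 332 and 269 against 112 and 92.7. Hk1, the constitutive hexokinase, did not pass, at 37.9 and 41.6 against 46.3 and 48.6 CPM. Of 13 genes of amino acid transport and the Myc programme tested, 6 rose and 2 fell. Slc7a5, the large neutral amino acid transporter, rose from 14.6 and 11.8 to 47.8 and 47.3 CPM. Of 13 ribosomal protein genes, 10 rose, by at most 0.49 on the log2 scale (Rps19), and 4 of them passed in thinned cells.

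Among 15 feedback regulators of cytokine and kinase signals, 12 rose and 1 fell, and 8 rose in thinned cells. Dusp4, a MAP kinase phosphatase, was at 71.3 and 64.5 against 16.7 and 19.6 CPM (1.98 ± 0.11), and Socs2 at 108 and 89.6 against 44.7 and 38.6. Of 11 heat shock genes, 4 rose, with Hspa1a at 427 and 306 against 103 and 107 CPM and Hspa1b at 300 and 194 against 74.6 and 80.1. These inducible genes are also known to rise when tissue is digested and cells are sorted.

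Of 12 interferon-stimulated genes tested, 10 fell and 1 rose, with a median log2 fold change of -1.04. Ifit1 was at 4.54 and 9.14 CPM in members and at 32.8 and 45.5 in comparison cells (-2.46 ± 0.156, adjusted p = 1.8e-07), and Isg15 at 88.4 and 137 against 311 and 343 (-1.49 ± 0.0993). The class with more Ifng RNA thus had less RNA of these genes. Of 16 proliferation genes, 0 rose and 9 fell, or 14 in depth-matched cells. Mki67, the proliferation marker, was at 48.6 and 52.2 against 61.1 and 57.4 CPM and did not pass, and Ube2c was at 115 and 72.3 against 177 and 132.

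**Figure D4:**
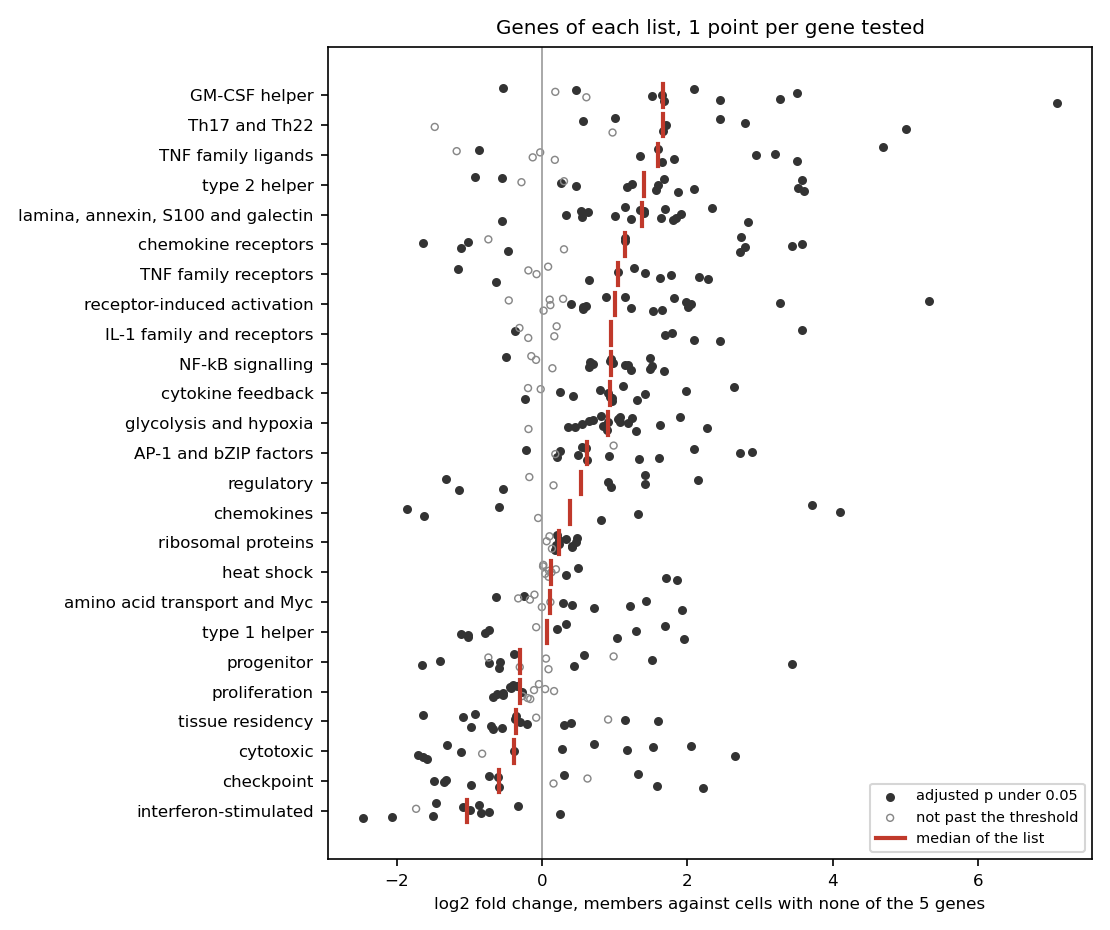
Log2 fold change of members against cells with none of the 5 genes, 1 point per gene tested, by list (filled: adjusted p under 0.05; red bar: median of the list). The lamina list, the glycolysis list and the TNF family ligands lie mostly to the right of 0 and the interferon-stimulated list to the left, with medians of 1.37, 0.90, 1.60 and -1.04.

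Of 12 T cell markers, 3 are Cd3 genes that the rule used for both classes. Of the other 9, 3 rose and 5 fell in members. All 12 had UMIs in members of both libraries, summing to 11513 and 11599 CPM against 13814 and 13574 in comparison cells. Trac, the constant gene of the receptor alpha chain, was at 638 and 662 against 933 and 890 CPM, and Trbc2 at 3264 and 3382 against 4660 and 4538. Cd4 was at 243 and 263 against 171 and 185 CPM (0.58 ± 0.0676, adjusted p = 3.4e-05). Of 9 markers of CD8, natural killer and gamma-delta cells tested, 0 rose and 7 fell. Cd8a, which CD4 T cells of the gut epithelium can express, was at 176 and 172 against 654 and 607 CPM (-1.79 ± 0.0717, adjusted p = 4.2e-09).

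Group 2 innate lymphoid cells also make interleukin 13, and 7 of their 8 tested markers rose in members while Klrg1 fell, and 4 rose in thinned cells. Gata3, Rora, Kit and Il1rl1 are among the 7, and T cells express several of them. Arg1, Nmur1 and Zbtb16, which such cells can express, had 0 UMIs in members of both libraries. They had too few UMIs to test, so their absence does not tell members from comparison cells. No member held 3 basophil and mast cell markers or 3 B cell markers. Prss34, a basophil protease, was at 1.38 and 5.39 against 32.7 and 40.1 CPM, and the 12 basophil and mast cell markers summed to 6.91 and 14.7 against 63.4 and 69.5, with Mcpt4, Cma1 and Tpsb2 at 0 in members of both libraries. Without cells of other types, 0 of the basophil and mast cell markers fell and 1, Hdc, rose.

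The 10 neutrophil markers summed to 409 and 1144 CPM in members and to 1680 and 3037 in comparison cells, and 7 fell, or 1 without cells of other types. Elane and Csf3r were at 0 in members of replicate 1, and none of the 10 in replicate 2. Erythroid markers summed to 16.4 and 31.5 against 373 and 151 CPM, and all 7 tested fell, or 3 without cells of other types. Epithelial markers summed to 67.9 and 82.9 against 140 and 201 CPM, with 7 lower and 3 higher. Cdh1, which encodes E-cadherin, was one of the 3, found in 137 and 144 members at 33.4 and 29.7 against 6.51 and 6.09 CPM. The other two, Krt5 and Krt14, were found in at most 6 members of a library. Ltf, Camp, Ngp, Lcn2 and S100a9, which neutrophils express, were among the largest falls. In replicate 2 they fell although cells with 3 neutrophil markers were a larger share of members than of comparison cells.

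The 15 largest rises among genes with at least 50 CPM that also passed in depth-matched cells were led by Il2, Il22, Cd83, Gzmf, Cd70, Ccdc184 and Penk. Cd83, an activation marker, was at 87.8 and 52.4 against 2.48 and 2.25 CPM (4.92 ± 0.159) and was found in 189 and 123 members. Penk, which encodes the precursor of enkephalin opioid peptides, was at 1438 and 1353 against 103 and 109 CPM (3.78 ± 0.0803, adjusted p = 2.8e-11) and was found in 459 and 447 members. Sdc4, which encodes the proteoglycan syndecan 4, was at 132 and 92.9 against 13.6 and 8.55 CPM, and Ramp3, a subunit of peptide hormone receptors, at 63.6 and 51.9 against 6.34 and 7.04. Krt83, a hair keratin gene, was found in 188 and 125 members, at 69.3 and 40.7 against 5.88 and 5.36 CPM. Of the largest falls that are not neutrophil or epithelial genes, Cd7 was at 353 and 435 against 1370 and 1375 CPM (-1.74 ± 0.0796) and Art2b, a T cell surface enzyme, at 23.5 and 33.6 against 89.3 and 107.

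Members with an Il13 UMI were compared with members without, 527 against 533 cells in replicate 1 and 510 against 402 in replicate 2, to see how members vary among themselves. The split uses a rule gene, so members with Il13 needed 2 of the other 4 genes and members without needed 3, and it reads as little as 1 UMI. Of 9261 tested, 151 passed (1.63%), 88 higher with Il13 (0.95%) and 63 lower (0.68%). The count fell to 3 without the replicate block and to 6 with DESeq2, so single calls are weak, and p-values of this fit are not printed. Many of the largest values also rest on few cells. Only Mt1 and Xcl1, of the 16 genes named for this comparison, kept their call under every alternative fit.

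Mt1, which encodes a metal-binding metallothionein, was at 119 and 89.5 CPM in members with Il13 and at 38.6 and 32.4 in those without (1.53 ± 0.115). Xcl1 was at 252 and 354 against 934 and 1001 CPM (-1.71 ± 0.0615). As given above, a few members held much of the Xcl1 RNA, so these levels do not tell how many members differed. Il2 was at 490 and 489 CPM with Il13 and at 165 and 52.4 without, but 5 members held 81.7% of its UMIs in each library. Thinned to 1500 UMIs, it was found in 2.52% and 7.27% of members with Il13 and in 3.19% and 1.16% of those without, so the direction differed between replicates. Tff1, a secreted trefoil peptide gene, was at 137 and 130 against 34.7 and 70.2 CPM, Scin, which encodes an actin-severing protein, at 85.8 and 49.6 against 36.3 and 24.7, and Cd81, a tetraspanin, at 282 and 211 against 149 and 120. Il4 and Il3 were each seen in few members, as given above. All Il4 UMIs of members lay in cells with Il13, at 9.49 and 6.80 CPM. Il3 was at 26.1 and 39.4 CPM with Il13 and at 1.58 and 2.70 without.

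Other genes of the profile differed little in size between members with and without Il13. Gata3 was at 188 and 151 CPM with Il13 and at 163 and 124 without and did not pass, and Bhlhe40 was at 992 and 881 against 1005 and 856. Ifng passed with a difference of 0.18 on the log2 scale and Lmna, given here without test, differed by 0.20. Of the 18 genes of the lamina list, 6 were higher with Il13 and 0 lower, and of 16 proliferation genes 6 were higher. The falls of Defa24, Defa30 and Itln1, genes of Paneth and goblet cells, rested on replicate 2. There 5 members held 99.7%, 99.9% and 98.7% of the UMIs of the 3 genes, and in replicate 1 Defa24 was at 3.95 against 5.12 CPM.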

How the data were processed

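Droplet libraries (10x Genomics 3′ chemistry) were read as deposited. Each holds raw counts, that is UMI counts per gene and barcode, which the authors made with Cell Ranger 3.1.0 against mm10, per the file headers and the submitters' processing notes. The hashtag libraries held gene counts and no hashtag features. Kept barcodes had at least 1000 UMIs, at least 500 genes and no more than 10% of UMIs from mitochondrial genes. The members, the gene lists and the tests were chosen with earlier results of these data known, so no list is independent evidence of its direction.

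Counts were summed per class and library and tested with edgeR 4.0.16 in R 4.3.3 (quasi-likelihood test, TMM, filterByExpr, library as a block, Benjamini-Hochberg adjusted p under 0.05), without the 5 rule genes and the Cd3 genes. The library is the block because both classes of a pair come from the same pooled library, and each fit has 1 residual degree of freedom. DESeq2 1.42.0 was an alternative. Depth was matched by pairing a member with a comparison cell of the same library within 5% of its UMIs, those of the 5 genes left out. All 1060 members of replicate 1 and 909 of 912 in replicate 2 found a partner. Alternatively, cells with at least 1500 UMIs were thinned at random to 1500, and the others were left out. For the shares of cells that met the rule and for the thinned fit, the rule was applied anew to the thinned counts. For the thinned shares of members with Ifng or Il2, members were those chosen by all UMIs, 977 and 880 by replicate. CPM are per 1000000 UMIs of the class sum, and fold changes come from the fit, whose normalization leaves the rule genes out. No doublet caller was run; leaving out the deepest 5% of cells, leaving out shared barcodes and asking for 10 UMIs of the 5 genes were alternatives added after seeing the data. A cell of another type is one with at least 3 markers of that type, and marker lists were written with earlier results known. The fits were run on simulated counts with known changes, drawn with 1 spread shared by all genes. For members against comparison cells, 77.6% of genes changed by 1 on the log2 scale and 0.0587% of unchanged genes were called. For the Il13 comparison these shares were 78.1% and 0.123%. No cells were chosen by the rule in the simulation, so it does not cover the effect of that choice. Intervals are exact binomial (Clopper-Pearson). Gene limits were read from GENCODE for mm10 (455 of 455 identifiers found), and promoter sequences from RefSeq (GRCm38.p6).

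Named genes were the rule genes and Lmna, a panel of 19 genes, up to 4 genes per list with the largest changes, the 15 largest rises and falls with at least 50 CPM, and the 8 largest rises and falls of the Il13 comparison. Other genes given as examples were chosen after their values were seen. Some genes of the lists are not reported here by name.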

Additional observations from a re-analysis of the deposited data

Results flagged for a closer look

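The hashtag libraries, which the comparisons do not use, held UMIs of the 5 genes at member barcodes. There were 16 such UMIs in replicate 1 and 27 in replicate 2, against 0 and 1 at the barcodes of cells with none of the genes. Gene UMIs of all kinds in these libraries numbered 5035 and 6496 at member barcodes and 43729 and 48574 at comparison barcodes. Ccl1 gave 9 and 17 of the UMIs, Il13 4 and 5, Csf2 2 and 3, and Tnfsf11 1 in each. Both sets of barcodes were chosen by UMIs of these 5 genes in the expression library of the same replicate. The contrast is therefore not independent of that choice.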

How the results depend on the processing

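The comparison of members with cells that had none of the 5 genes gave 4334 calls and between 3151 and 4902 under 11 alternatives (the ones besides DESeq2 and thinning), among them 3841 with depth-matched cells, 4880 without cells of other types and 3151 without the replicate block. It gave 1925 with DESeq2 and 1973 in thinned cells, of which 1836 were shared with the 4334, and the cause was not tested. The thinned fit applied the rule to the thinned counts, which left 496 and 336 members. Its comparison cells numbered 11042 and 10958, and some of them had UMIs of the 5 genes before thinning. With no low-count filter the calls were 2078 higher and 2736 lower. Of 142 named genes with a call, 139 kept their direction and 104 their call under every alternative that gave a result for them. Not every alternative did: Il5, for example, had no result with depth-matched or thinned cells. Reversals were Il1b without replicate 2 and Hes1 at 4 or more of the genes (-0.44). Hba-a1 reversed with depth-matched cells (0.29) and without cells of other types (0.026). For Il1b the log2 ratio of CPM, with 1 CPM added to both classes, was -0.40, against 3.42 without replicate 1. Tcf7, which had no call, turned to -0.72 when thinned, with a call. The Il13 comparison gave 151 calls, and 76 with RLE size factors, 6 with DESeq2, 3 without the replicate block, 71 without cells of other types and 92 without the deepest cells. There H2-Aa (0.27) and Cd74 (0.44) turned without cells of other types. The share of members, 5.67%, was 2.78% thinned, 2.16% at 4 or more genes, 6.41% in cells with 2000 UMIs, 5.50% without cells of other types, 5.46% without the deepest cells and 3.43% at 10 UMIs of the 5 genes, and ran from 5.59% to 5.75% by library. With 1 library the block leaves no residual degrees of freedom, so no count of calls could be made from either library alone. Il5 and Foxp3 had UMIs in at most 6 members of a library, and low depth and low expression cannot be told apart for them.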
